A study of Mus musculus with 16 samples.

Results

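Levels of 8 long noncoding RNAs, Malat1, Neat1, Miat, Snhg11, Rmst, Gas5, Snhg1 and Pantr1, were followed through 16 RNA-seq libraries of primary mouse hippocampal cultures. The 8 were taken by name from the 55385 genes of the deposited tables, 1 Ensembl identifier each, and all 8 stayed among the 17222 genes tested after the filter on low counts. The cultures came from newborn C57Bl/6N mice and every culture was infected with an adeno-associated virus that carries a short hairpin RNA under the U6 promoter and GFP under the chicken beta-actin promoter. One hairpin, Control-shRNA, is the control. The other targets Dnmt3a1, the long isoform of the DNA methyltransferase Dnmt3a; the sample titles call it shDnmt3a1 and the study's methods Dnmt3a1-shRNA2. Each hairpin was sampled at baseline (0 h) and after 4 h of bicuculline, which blocks GABA-A receptors and so raises network activity, with 4 libraries in each of the 4 groups, described as independent neuronal preparations. The U6 promoter is not restricted to 1 cell type, whereas the study chose the viral serotype for its preference for neurons, and a single Dnmt3a1 hairpin was sequenced.

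Long noncoding RNAs are transcripts without a known protein product, and several of those followed here stay in the nucleus. Malat1 is an abundant resident of nuclear speckles, the bodies that store splicing factors. Neat1 is the scaffold around which paraspeckles, another kind of nuclear body, assemble. Miat, also named Gomafu, is a nuclear RNA of neurons that binds splicing factors, Rmst and Pantr1 are transcribed during neural development, and Snhg11 is enriched in neurons. Gas5 and Snhg1 are host genes of small nucleolar RNAs (snoRNAs): the snoRNAs are cut out of their introns, and the spliced host RNA that remains is exported and usually short-lived. Snhg11 is also named as a snoRNA host gene, and the annotated snoRNA genes Gm25187 and Gm25129 overlap its locus on the same strand.

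The genes lie on 5 chromosomes of GRCm38 and differ widely in size in GENCODE M21. Malat1 (ENSMUSG00000092341.3, chromosome 19, 5795690 to 5802672, minus strand) and Neat1 (ENSMUSG00000092274.3, chromosome 19, 5824708 to 5845478, minus strand) are neighbours with longest transcripts of 6983 and 20771 nt. Miat (ENSMUSG00000097767.8) lies on chromosome 5 from 112213228 to 112229395 on the minus strand. Snhg11 (ENSMUSG00000044349.16) lies on chromosome 2 from 158375638 to 158386145 on the plus strand, and the annotation lists it as protein coding. Gas5 (ENSMUSG00000053332.13, chromosome 1, 161034422 to 161038539) and Snhg1 (ENSMUSG00000108414.1, chromosome 19, 8723475 to 8726443) are compact plus-strand genes with up to 12 and 10 exons. Rmst (ENSMUSG00000112117.1, chromosome 10, 92071037 to 92165170) and Pantr1 (ENSMUSG00000060424.14, chromosome 1, 42590782 to 42694842) are minus-strand genes that span 94134 and 104061 bp.

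RefSeq promoters, from 250 bases before to 50 bases after the annotated start in GRCm38.p6, were found for 5 of the 8 (Malat1, Miat, Snhg11, Gas5 and Snhg1). Those of Snhg1 and Gas5 are shown because these RNAs rose with bicuculline under both hairpins, and that of Malat1 because it was called higher in 1 of the 2. Each was searched on both strands for TGACGTCA, the full CRE motif bound by CREB, for its shorter form TGACG, for the AP-1 motif TGANTCA and for the E-box CACGTG. Capitals mark the matches, and every match of TGACGTCA also holds matches of TGACG.
Snhg1, chr19:8723237-8723536, plus strand: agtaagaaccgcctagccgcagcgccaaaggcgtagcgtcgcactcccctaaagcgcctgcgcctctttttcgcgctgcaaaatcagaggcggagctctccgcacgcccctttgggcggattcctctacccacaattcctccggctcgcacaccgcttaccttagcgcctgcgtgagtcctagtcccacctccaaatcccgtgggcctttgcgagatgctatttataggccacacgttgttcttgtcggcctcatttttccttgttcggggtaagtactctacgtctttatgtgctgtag
Gas5, downstream of its 2 annotated starts, chr1:161034916-161035215, plus strand: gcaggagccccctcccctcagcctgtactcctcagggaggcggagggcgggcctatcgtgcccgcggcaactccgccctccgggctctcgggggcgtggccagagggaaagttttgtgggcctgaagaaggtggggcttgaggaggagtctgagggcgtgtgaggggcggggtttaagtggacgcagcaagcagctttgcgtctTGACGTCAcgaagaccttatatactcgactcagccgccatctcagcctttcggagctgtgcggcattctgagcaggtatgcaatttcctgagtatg
Malat1, chr19:5802623-5802922, minus strand: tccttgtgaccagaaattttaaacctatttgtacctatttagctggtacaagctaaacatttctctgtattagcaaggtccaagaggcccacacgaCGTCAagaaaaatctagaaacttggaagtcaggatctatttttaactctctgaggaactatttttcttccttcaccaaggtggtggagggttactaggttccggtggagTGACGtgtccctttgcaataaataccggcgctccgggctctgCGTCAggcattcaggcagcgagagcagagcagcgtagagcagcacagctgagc

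The Gas5 window holds 1 TGACGTCA, whose first base lies at -46 from the start, a motif found in 1.79% of the 32851 RefSeq promoters of the same length. The Malat1 window holds 3 matches of TGACG, first bases at -154, -45 and -3, and at least 1 match stands in 20.8% of promoters. No match of these 4 motifs was found in the windows of Snhg1, Miat or Snhg11 or at the other Gas5 start. The AP-1 motif and the E-box are held by 7.81% and 7.15% of promoters and by none of the windows searched here. A match describes the letters only.

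The libraries summed to between 28912697 and 29586355 estimated counts, so depth was nearly equal. Dnmt3a, the gene that the hairpin targets, was lower under Dnmt3a1-shRNA2 by -2.81 log2 at baseline and -2.85 with bicuculline, and the activity genes Arc, Fos and Npas4 rose with bicuculline by 5.64 to 7.32 log2 in Control-shRNA and 6.08 to 6.63 under Dnmt3a1-shRNA2, so both labels matched their libraries. At baseline Fos was called higher under Dnmt3a1-shRNA2 than in Control-shRNA (0.58 log2, adjusted p 0.0437 in edgeR). Npas4 differed there by 0.61 (adjusted p 0.0712) and Arc by -0.39 (adjusted p 0.311), and neither was called. With bicuculline none of these activity genes was called between the hairpins. Markers of neurons in general summed to 5738 to 7915 CPM (read counts per library size, with TMM scaling) over the 16 libraries, and markers of astrocytes to 253 to 678 CPM. Microglial markers summed to 2.05 to 4.91 CPM. In the cultures as a whole, a change in the number of cells that express an RNA and a change in RNA per cell cannot be told apart.

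Per length, in TPM (scaled for transcript length and library total), the RNAs spanned a wide range of levels. In Control-shRNA at baseline Gas5 and Snhg11 led, with 118 ± 12.5 and 109 ± 20.4 TPM (SD, n = 4), and their libraries overlapped. Pantr1 with 78.0 ± 1.95 TPM and Malat1 with 56.8 ± 16.9 TPM followed and also overlapped each other, as did the next pair, Miat with 28.4 ± 3.31 TPM and Snhg1 with 20.1 ± 3.65 TPM. Rmst with 1.91 ± 1.003 TPM and Neat1 with 1.16 ± 0.485 TPM were the lowest and overlapped each other. With bicuculline Snhg1 moved up to 73.8 ± 14.3 TPM in Control-shRNA, beside Pantr1 at 79.1 ± 3.35 TPM and Malat1 at 59.0 ± 9.87 TPM, and its libraries overlapped those of both neighbours in the order. Gas5 then stood apart above Snhg11, at 170 ± 16.6 against 94.7 ± 8.64 TPM with no overlap.

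The first comparison asked how the RNAs responded to 4 h of network activity. The snoRNA hosts Snhg1 and Gas5 and the paraspeckle scaffold Neat1 rose in Control-shRNA, by 3.76-fold, 1.63-fold and 2.01-fold. The same 3 rose under Dnmt3a1-shRNA2, by 3.74-fold, 1.73-fold and 2.35-fold, and there Malat1 (1.86-fold) and Rmst (2.37-fold) were called higher as well. Miat, Snhg11 and Pantr1 were not called under either hairpin. Calls required edgeR's quasi-likelihood test to give an adjusted p under 0.05 (Benjamini-Hochberg over all 17222 genes) and the log2 fold change to exceed 0.5 in size. So 3 of 8 were called higher in Control-shRNA beside 10.8% of all genes, and 5 of 8 under Dnmt3a1-shRNA2 beside 12.6%. Called lower were 0 of 8 in both, beside 11.1% and 13.2% of all genes. Groups did not overlap for 3 and 4 of the 8, close to the 39.7% and 40.4% of all genes. The median log2 fold change of the 8 was 0.56 in Control-shRNA and 0.85 under Dnmt3a1-shRNA2, beside 0.01 and -0.01 over all genes.

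**Figure D1:**
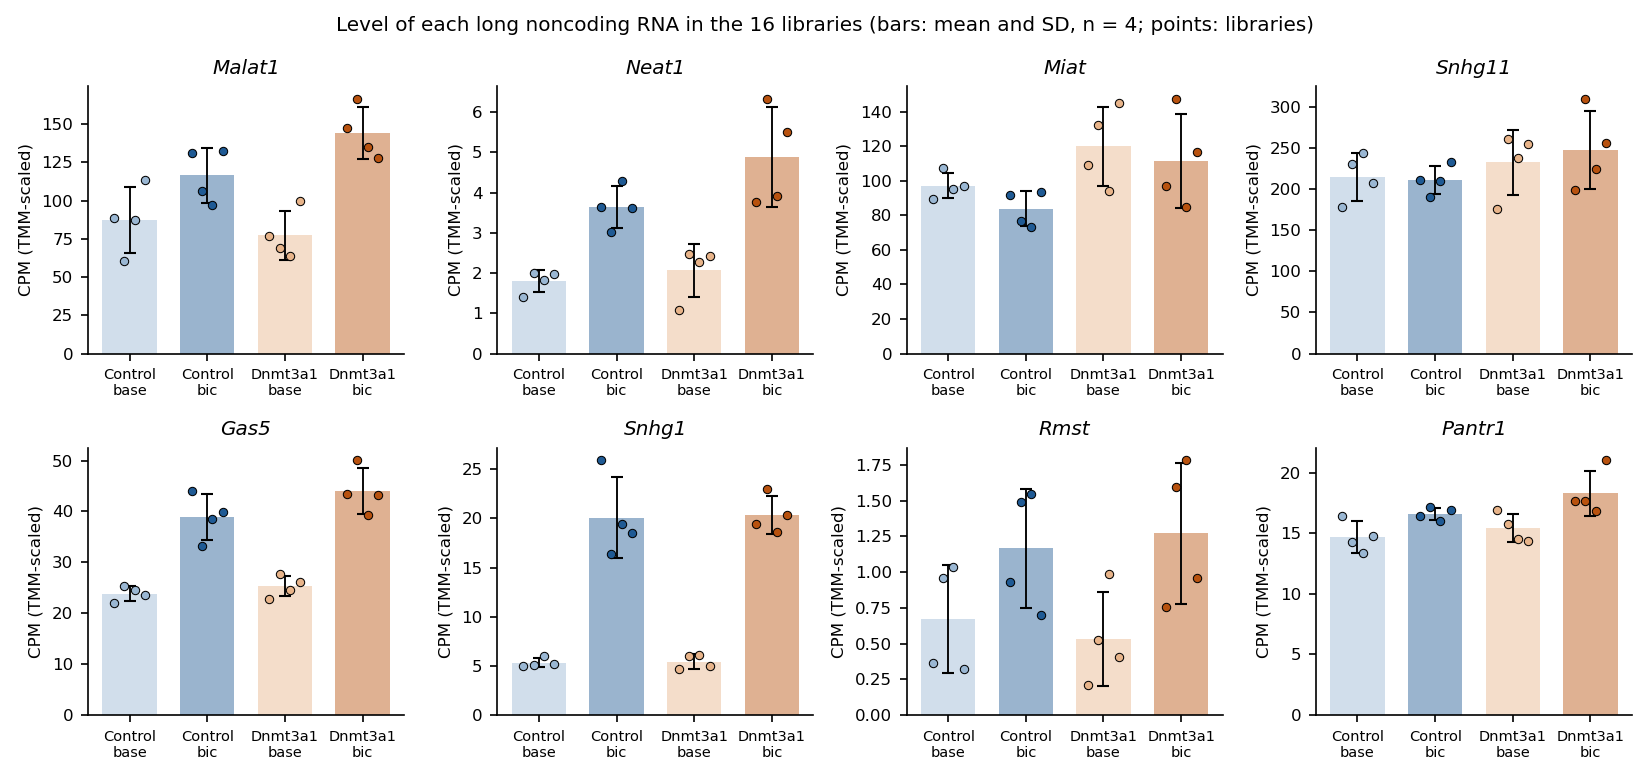
TMM-scaled CPM (y axes, from 0) of the 8 RNAs in each of the 16 libraries (points) by group, where base is baseline and bic is 4 h of bicuculline. Bars give the mean and SD of 4 libraries. Every bicuculline library of Snhg1, Gas5 and Neat1 lies above every baseline library of the same hairpin, whereas the groups of Miat and Snhg11 overlap.

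Snhg1 carried the largest response of the 8. Its 4 Control-shRNA libraries held 5.003, 5.12, 5.96 and 5.22 CPM at baseline and 25.9, 16.4, 19.4 and 18.5 CPM with bicuculline. Under Dnmt3a1-shRNA2 they held 4.67, 5.98, 6.13 and 4.95 CPM at baseline and 19.4, 23.0, 18.6 and 20.3 CPM with bicuculline. All 8 bicuculline libraries lay above all 8 baseline libraries. The log2 fold change was 1.91 ± 0.13 (SE) in Control-shRNA, with an adjusted p of 3.79e-09, and 1.90 ± 0.13 under Dnmt3a1-shRNA2, with an adjusted p of 3.19e-09, both by edgeR. Its call held in each of the 16 fits that left out 1 library.

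Gas5, whose spliced RNA is known to accumulate when growth stops, had baseline libraries of 21.9, 25.3, 24.6 and 23.6 CPM and bicuculline libraries of 43.9, 33.2, 38.5 and 40.0 CPM in Control-shRNA. Under Dnmt3a1-shRNA2 the baseline libraries held 22.9, 27.6, 24.6 and 26.2 CPM and the bicuculline libraries 43.4, 50.1, 39.2 and 43.1 CPM. The bicuculline and baseline libraries did not overlap under either hairpin. The log2 fold changes of 0.70 ± 0.09 and 0.79 ± 0.09 (SE) had adjusted p-values of 7.29e-06 and 1.36e-06 (edgeR). Zbtb37 overlaps the Gas5 locus on the opposite strand, shares 0 exonic bases with it and was called lower under both hairpins (-0.54 and -0.59 log2, adjusted p 0.00289 and 0.00105 in edgeR).

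Neat1 was scarce, with 31.0 to 171 estimated counts a library, so each value rests on few reads. Its Control-shRNA libraries held 1.42, 2.01, 1.83 and 1.98 CPM at baseline and 3.65, 3.02, 4.29 and 3.61 CPM with bicuculline. Under Dnmt3a1-shRNA2 they held 1.09, 2.48, 2.29 and 2.42 CPM at baseline and 3.76, 6.33, 3.92 and 5.50 CPM with bicuculline. No baseline library reached the lowest bicuculline library of either hairpin. The log2 fold changes were 1.01 ± 0.23 (adjusted p 0.00167) and 1.23 ± 0.22 (SE, adjusted p 2.00e-04) by edgeR. On TPM the Control-shRNA response was not called, with 0.46 on the log2(TPM + 1) scale and an adjusted p of 0.0634 in limma.

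Malat1 was called higher with bicuculline under Dnmt3a1-shRNA2 alone. Its Control-shRNA libraries held 88.7, 60.7, 87.3 and 113 CPM at baseline and 131, 106, 96.9 and 133 CPM with bicuculline, and these groups overlapped. Under Dnmt3a1-shRNA2 the baseline libraries held 77.1, 68.9, 63.6 and 99.7 CPM and the bicuculline libraries 147, 167, 135 and 128 CPM, with no overlap. The log2 fold change in Control-shRNA was 0.41 ± 0.17 (SE, adjusted p 0.0535), and under Dnmt3a1-shRNA2 it was 0.90 ± 0.17 (adjusted p 2.32e-04), both by edgeR. The difference between these responses, 0.48 ± 0.23 log2, did not pass the test of the interaction (adjusted p 1.0 in edgeR, unadjusted p 0.0536). One library decided the Control-shRNA call: without Control-shRNA baseline replicate 4, the highest of its group, the log2 fold change was 0.56 and the adjusted p 0.0120. Under the replicate block this difference in Control-shRNA, all libraries kept, was 0.42 log2 with an adjusted p of 0.0133 in edgeR, under the fold threshold and so not called.

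Rmst, a partner of Sox2 in neural differentiation whose locus also holds the microRNA genes Mir135a-2 and Mir1251, was the RNA with the fewest counts, 6 to 49.6 a library. The Control-shRNA libraries held 0.362, 0.957, 1.03 and 0.324 CPM at baseline and 0.931, 1.49, 1.54 and 0.702 CPM with bicuculline. Under Dnmt3a1-shRNA2 they held 0.211, 0.523, 0.984 and 0.404 CPM at baseline and 0.752, 1.59, 1.78 and 0.960 CPM with bicuculline. In every group replicates 2 and 3 were above replicates 1 and 4, and the groups overlapped although each bicuculline library exceeded the baseline library of its number. The log2 fold change was 0.79 ± 0.43 in Control-shRNA (adjusted p 0.162) and 1.24 ± 0.45 (SE) under Dnmt3a1-shRNA2 (adjusted p 0.0299) in edgeR. With the replicate number as a block, edgeR called Rmst in Control-shRNA too, at 0.84 log2 and an adjusted p of 0.00526, which made 4 of the 8 called there. The Dnmt3a1-shRNA2 call was lost when bicuculline replicate 2 or 3, or baseline replicate 1, 2 or 4, of that hairpin was left out, with log2 fold changes of 1.11, 1.03, 0.99, 1.23 and 1.13. With the block and all 16 libraries it was 1.28 log2 with an adjusted p of 0.000187 (edgeR).

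Miat, Snhg11 and Pantr1 showed no called response. Miat had 89.7 to 107 CPM at baseline and 73.4 to 93.7 CPM with bicuculline in Control-shRNA, a log2 difference of -0.21 (95% interval -0.53 to 0.10). On TPM, where Miat fell from 28.4 ± 3.31 to 19.6 ± 1.08 TPM (SD, n = 4), limma called it lower in Control-shRNA, with -0.51 on the log2(TPM + 1) scale and an adjusted p of 0.0279. Snhg11, with 176 to 310 CPM over all libraries, differed by -0.03 log2 (95% interval -0.31 to 0.26) in Control-shRNA and 0.09 log2 (-0.20 to 0.38) under Dnmt3a1-shRNA2. Pantr1 varied least, between 13.4 and 21.05 CPM over all libraries. Its log2 difference under Dnmt3a1-shRNA2, 0.25 ± 0.08 (SE), had an adjusted p of 0.0214 in edgeR but lay under the fold threshold.

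**Figure D2:**
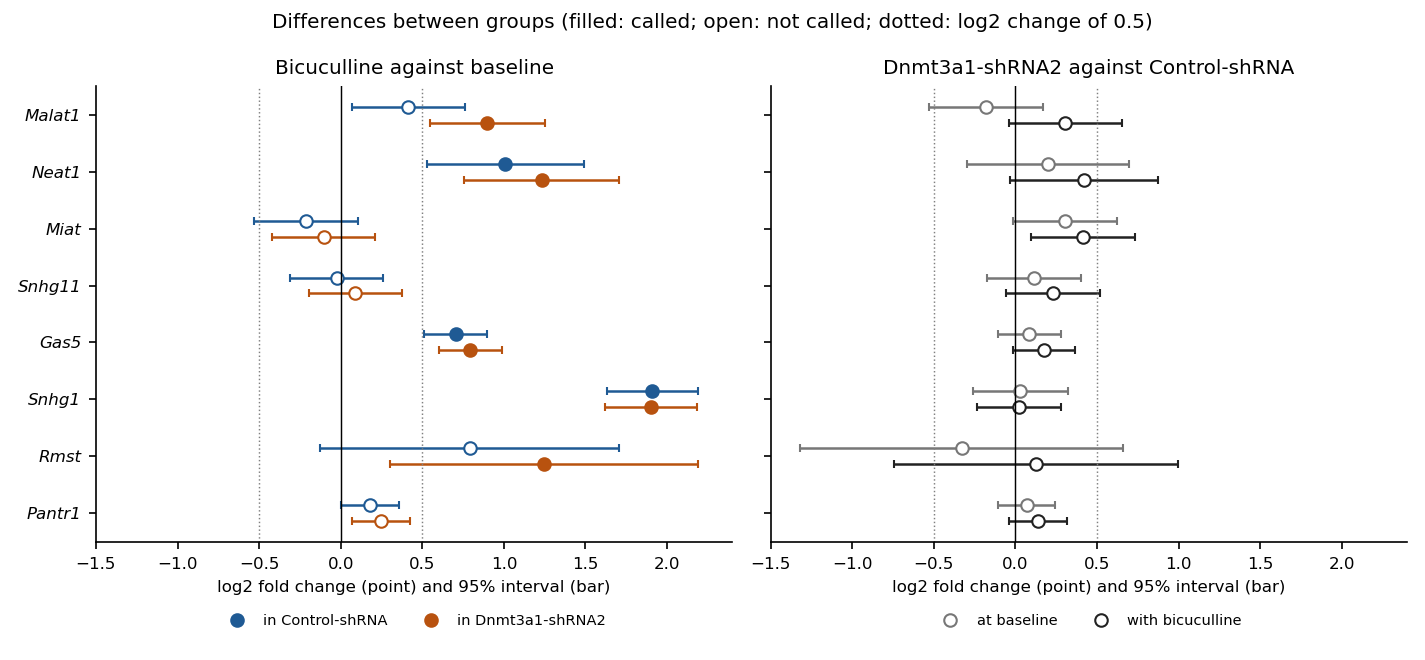
Log2 fold change (x axes) with its 95% interval for each RNA, bicuculline against baseline within each hairpin on the left and Dnmt3a1-shRNA2 against Control-shRNA within each condition on the right. Filled points were called and open points were not. Filled points stand only in the left panel, for Snhg1, Gas5 and Neat1 under both hairpins and for Malat1 and Rmst under Dnmt3a1-shRNA2, and all lie right of the dotted line at 0.5.

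The second comparison asked whether the loss of Dnmt3a1 moved these RNAs in either condition. None of the 8 was called at baseline, where 5.83% of all genes were, or with bicuculline, where 5.89% were. At an unadjusted p under 0.05 edgeR without the replicate block counted 0 at baseline and 1, Miat, with bicuculline. With the block, edgeR's unadjusted p at baseline was under 0.05 for Miat (0.0151). With bicuculline it was under 0.05 for Miat (0.00198), Malat1 (0.0221) and Neat1 (0.0353). The block still called 0 of the 8 in both conditions, and so did voom with limma and DESeq2. At baseline the log2 differences ran from -0.33 for Rmst to 0.30 for Miat, with a median of 0.08. With bicuculline all 8 were above 0, from 0.02 for Snhg1 to 0.42 for Neat1, with a median of 0.20 beside -0.01 over all genes. In both conditions the libraries of the hairpins overlapped for each of the 8, whereas 19.9% of all genes did not overlap at baseline and 20.9% with bicuculline.

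Miat came nearest to a call. The Dnmt3a1-shRNA2 libraries held 109, 133, 93.99 and 145 CPM at baseline, against 89.7, 107, 95.3 and 97.0 CPM in Control-shRNA. With bicuculline they held 97.1, 148, 85.1 and 117 CPM against 91.6, 76.9, 73.4 and 93.7 CPM. The Dnmt3a1-shRNA2 libraries thus reached higher but spread further, and they overlapped those of Control-shRNA in both conditions. The log2 difference was 0.30 ± 0.15 at baseline (adjusted p 0.194) and 0.41 ± 0.15 (SE) with bicuculline (adjusted p 0.0690) by edgeR. Leaving out 1 library in turn moved the latter between 0.25 and 0.52. It was called in 1 of the 16 fits, without Dnmt3a1-shRNA2 bicuculline replicate 3, the lowest of its group (0.52, adjusted p 0.0211 in edgeR). Under the replicate block, all libraries kept, it was 0.39 with an adjusted p of 0.0107 in edgeR, under the fold threshold and so not called.

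The 95% intervals show how large a difference between the hairpins the spread leaves room for. For Pantr1 the 95% interval at baseline was -0.11 to 0.24 log2, for Gas5 -0.11 to 0.28, for Snhg11 -0.17 to 0.40 and for Snhg1 -0.26 to 0.32, all inside the threshold of 0.5 on both sides. For Malat1 it reached from -0.53 to 0.17, for Miat from -0.014 to 0.62, for Neat1 from -0.30 to 0.70 and for Rmst from -1.32 to 0.66, all past the threshold on 1 side or both. Under the replicate block the baseline interval of Malat1 came inside the threshold, at -0.46 to 0.10, while Miat (0.063 to 0.51), Neat1 (-0.24 to 0.61) and Rmst (-0.86 to 0.21) still passed it on 1 side. With bicuculline, without the block, the intervals of Gas5 (-0.013 to 0.37), Snhg1 (-0.24 to 0.28) and Pantr1 (-0.038 to 0.31) lay inside the threshold. Those of Miat (0.093 to 0.73), Neat1 (-0.033 to 0.88), Malat1 (-0.041 to 0.65), Snhg11 (-0.059 to 0.52) and Rmst (-0.74 to 0.997) passed it. Under the replicate block the interval of Snhg11 with bicuculline came inside the threshold, at -0.00024 to 0.42. Those of Miat (0.17 to 0.62), Malat1 (0.054 to 0.61) and Neat1 (0.031 to 0.76) then lay above 0 and still passed the threshold. That of Rmst (-0.34 to 0.57) also passed it. The interaction, which tests whether the response to bicuculline differed between hairpins, was called for 0 of the 8 and for 0% of all genes. At an unadjusted p under 0.05, without the replicate block, it counted 0 of the 8 and 852 of all genes. With the block Malat1 passed that level (unadjusted p 0.0144 in edgeR), and 0 of the 8 were called. DESeq2 called 17 genes and voom 0, none of them among the 8.

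Reads and TPM parted for some of these RNAs. The TPM divides each gene's count by the length of the transcripts that received its reads, and it also lacks the TMM scaling of the CPM, so the gap between the scales is not a measure of length alone. The ratio of count to TPM, relative to the median gene of the library, follows the mean transcript length. It was examined for the 6 RNAs with at least 100 counts in every library, which left out Neat1 and Rmst. Malat1, annotated with 1 transcript of 6983 nt and 3 of 485, 556 and 656 nt, had the 2 largest shifts among them. Its ratio was 1.36, 1.28, 1.201 and 1.16 in the Control-shRNA baseline libraries and 1.07, 0.980, 1.04 and 0.955 in those of Dnmt3a1-shRNA2. With bicuculline it was 1.52, 1.40, 1.35 and 1.28 in Control-shRNA and 1.43, 1.204, 1.42 and 1.32 under Dnmt3a1-shRNA2. Dnmt3a1-shRNA2 at baseline thus stood below the other 3 groups without overlap.

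The Malat1 ratio was lower under Dnmt3a1-shRNA2 than under Control-shRNA at baseline by -0.30 log2 and rose with bicuculline under Dnmt3a1-shRNA2 by 0.41 log2. Each had an exact two-sided permutation p of 0.0286, the smallest that 4 against 4 libraries allow, and 0.137 after Benjamini-Hochberg adjustment over the 24 tests, so none of the 24 passed. The shift was larger than that of 99.7% of 10519 genes at baseline and of 99.4% in the response. Groups failed to overlap for 3.17% of these genes at baseline between the hairpins and 29.1% in the response under Dnmt3a1-shRNA2, beside 24.1% in the response of Control-shRNA and 13.2% between the hairpins with bicuculline. On the TPM scale the Malat1 response under Dnmt3a1-shRNA2 was 0.32 log2 (limma on log2(TPM + 1), adjusted p 0.198) against 0.90 by reads. The gene Gm37376 on the opposite strand shares 453 exonic bases with Malat1 and changed by 0.21 log2 with bicuculline under Dnmt3a1-shRNA2 (adjusted p 0.389, edgeR). Whether the libraries kept strand was not given in the sources used here, so reads from these bases cannot be told apart.

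**Figure D3:**
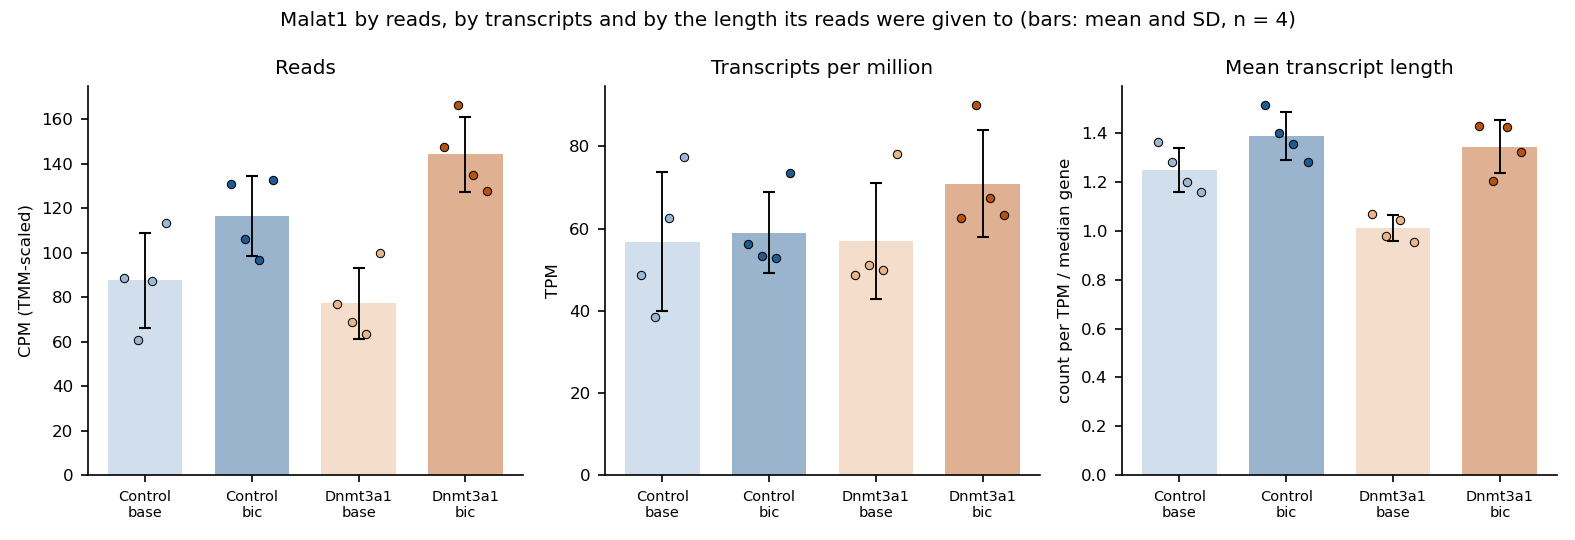
Malat1 in the 16 libraries (points) as TMM-scaled CPM, as TPM, and as the count per TPM relative to the median gene of the library. Bars give the mean and SD of 4 libraries and every y axis starts at 0. The 4 Dnmt3a1-shRNA2 baseline libraries, 0.955 to 1.07, lie below all 12 others in the right panel, whereas the groups overlap in TPM.

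The other shifts in length were smaller than these. Snhg1 had a lower ratio with bicuculline under both hairpins, by -0.18 and -0.16 log2, larger in size than those of 95.1% and 93.5% of genes and without overlap only under Dnmt3a1-shRNA2. Malat1 in Control-shRNA had a ratio higher by 0.15 log2 with bicuculline, a shift larger than that of 93.4% of genes, and its groups overlapped. Miat had a higher ratio with bicuculline in Control-shRNA, by 0.11 log2 without overlap, larger than that of 89.5% of genes, beside its lower TPM. Gas5 had a higher ratio under Dnmt3a1-shRNA2 with bicuculline, by 0.05 log2 without overlap, larger than that of 78.1% of genes. Snhg11, Gas5 and Pantr1 moved by at most 0.08 log2 in any comparison, against a median absolute shift of 0.02 to 0.03 log2 over all genes.

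Other host genes of snoRNAs were set beside Gas5, Snhg1 and Snhg11. Of 18 listed, 14 were tested. With bicuculline 7 of the 14 were called higher in Control-shRNA and 6 under Dnmt3a1-shRNA2, and 0 were called lower in either. Of all genes 10.8% and 12.6% were called higher and 11.1% and 13.2% lower. The median log2 fold change of the 14 was 0.48 and 0.35, beside 0.01 and -0.01 over all genes. Snhg5 led with 1.03 and 1.16 log2 (adjusted p 5.53e-06 and 1.05e-06 in edgeR), followed by Snhg12 with 0.90 and 1.01. Snhg1 at 1.91 log2 lay above every one of them, and Gas5 at 0.70 stood next to Zfas1 at 0.74 and Snhg8 at 0.73. Snhg11 was not called under either hairpin, at -0.03 and 0.09 log2. Between the hairpins 0 of the 14 were called in either condition, beside 5.83% of all genes at baseline and 5.89% with bicuculline. At an adjusted p alone 0 were higher at baseline and 1 with bicuculline, beside 8.12% and 7.69% of all genes. In both conditions 0 were lower at this level, a share that was not counted over all genes.

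**Figure D4:**
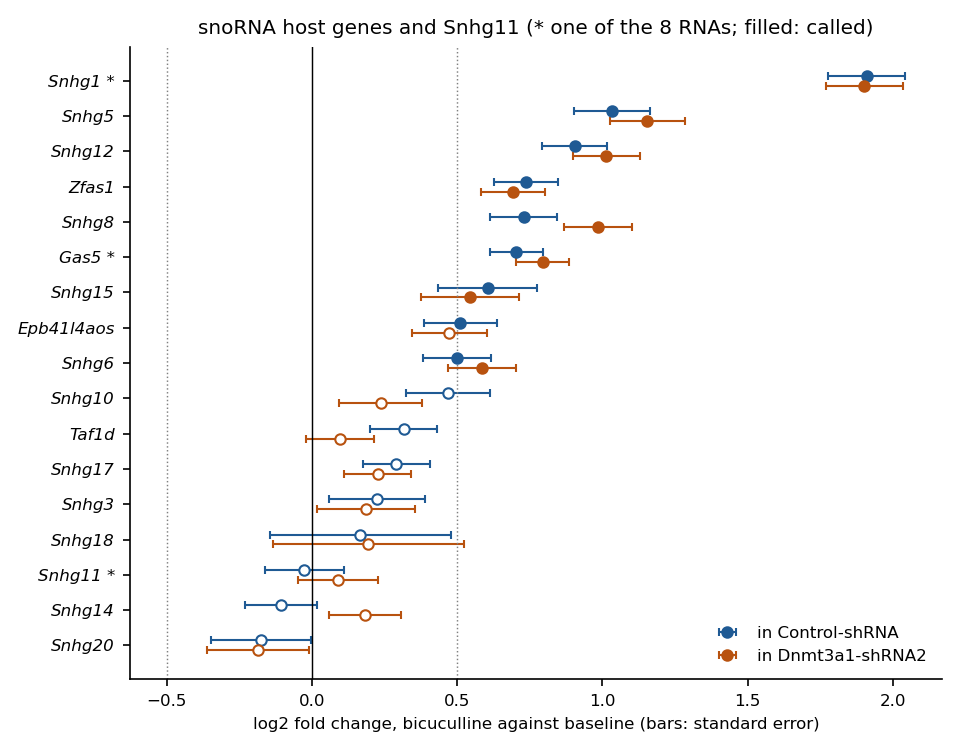
Log2 fold change with bicuculline (x axis, bars are the standard error) of 14 other snoRNA host genes and of Snhg1, Gas5 and Snhg11 (asterisks), in Control-shRNA and under Dnmt3a1-shRNA2. Filled points were called. Snhg1 lies farthest right at 1.91 and 1.90, and no gene was called lower.

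Proteins known from paraspeckles, the bodies built on Neat1, were measured for all 24 genes listed. With bicuculline 3 of the 24 were called higher and 1 lower under each hairpin, near the 10.8% and 12.6% of all genes called higher and under the 11.1% and 13.2% called lower. Rbm14, a core protein of these bodies, rose by 1.5 log2 in Control-shRNA and 1.44 log2 under Dnmt3a1-shRNA2, and Hnrnph3 by 0.87 and 0.88. Hnrnpr was the gene called lower, by -0.51 and -0.65. Sfpq (0.33 and 0.35), Pspc1 (0.13 and 0.13) and Nono (-0.05 and -0.19) were not called. The median of the list was 0.08 and 0.11 log2. Under Dnmt3a1-shRNA2, Rbmx alone was called higher than in Control-shRNA, with bicuculline, by 0.53 log2 (adjusted p 0.00446, edgeR). At an adjusted p alone, 8 of the 24 were higher under Dnmt3a1-shRNA2 at baseline, beside 8.12% of all genes, and 11 with bicuculline, beside 7.69%. In both conditions 0 were lower at this level, a share that was not counted over all genes. All 24 averaged over 10 CPM, as did 9238 of the 17222 genes tested. Small differences pass an adjusted p alone more easily at higher counts, so these shares are not of like genes. The median difference of the list was 0.19 log2 in both conditions, beside 0.01 and -0.01 over all genes.

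Of the nearest protein-coding genes on each side, those of Miat were not tested, and others were called at some loci. Slc3a2, which starts 106 bp from Snhg1 on the opposite strand and encodes the heavy chain of amino acid transporters, was called higher with bicuculline by 0.54 log2 under both hairpins. Wdr74, on the other side of Snhg1, differed by 0.03 and 0.13 and was not called. Pou3f3, 926 bp from Pantr1 and a transcription factor of upper-layer and hippocampal neurons, was called higher by 0.70 and 0.69 log2 while Pantr1 itself was not called. Frmd8, 4224 bp from Neat1, was not called in any comparison.

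Among tested genes that averaged 10 CPM or more, the closest in pattern to each called RNA were found by the root mean square difference of centred log2 CPM over the 16 libraries. Dusp6, a phosphatase of ERK, and Btg1 were closest to Snhg1, at 0.10 and 0.15 log2, against 0.96 for the spread of Snhg1 itself. Cfap20 and Clk4 were closest to Gas5, at 0.09 and 0.10 against 0.40. Slk and Chd1 were closest to Malat1, at 0.19 each against 0.43. Ints6l and Samd4 were closest to Neat1, at 0.22 and 0.24 against 0.66, and Cckbr and Csrp1 to Rmst, at 0.35 and 0.36 against 0.79. These likenesses describe 16 libraries of 4 groups that share their cultures and scaling.

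Cell type markers were measured beside these responses. With bicuculline, 4 of 5 markers of GABAergic neurons were called higher under each hairpin, beside 10.8% and 12.6% of all genes. The list summed to 1651 to 1964 CPM at baseline and 2462 to 2819 CPM with bicuculline in Control-shRNA. Of 5 markers of excitatory neurons 1 was called higher and 1 lower under each hairpin. Of 6 general neuron markers 0 were called higher and 1 lower, beside 11.1% and 13.2% of all genes called lower. In Control-shRNA their sum was nevertheless higher with bicuculline without overlap, at 6408 to 6796 CPM against 5738 to 6324 CPM. Of 6 astrocyte markers 0 were called in any comparison, and the summed CPM of 253 to 440 at baseline and 268 to 544 with bicuculline overlapped in Control-shRNA. The median difference of the astrocyte markers between the hairpins was 0.40 log2 at baseline and 0.42 with bicuculline. Between the hairpins 5.83% of all genes were called in either direction at baseline and 5.89% with bicuculline. At baseline the GABAergic markers summed to 1282 to 1492 CPM under Dnmt3a1-shRNA2, below Control-shRNA without overlap. Of these 5 markers 1, Sst, was called lower, beside the 5.83% of all genes, and their median was -0.31 log2. The 6 general neuron markers summed to 6477 to 7600 CPM under Dnmt3a1-shRNA2 at baseline, above the 5738 to 6324 CPM of Control-shRNA without overlap. Of these 6 markers 1, Tubb3, was called higher, beside the 5.83% of all genes, and their median was 0.13 log2. The part of these markers in the results for the 8 RNAs was not tested.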

How the data were processed

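RNA of 16 cultures (4 per group) was sequenced as paired-end reads on a BGISEQ platform. The authors trimmed the reads (Trim Galore 0.6.4, per the labels), quantified them with kallisto on GRCm38.p6 transcripts, and deposited 1 estimated count and 1 TPM value per gene and library. The counts carry no scaling for depth or length. Selection of poly(A) RNA was not given in the sources used here. Replicates were not pooled.

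The 8 RNAs and all gene lists were chosen with earlier results of these data known. Symbols from a gene name table or GENCODE M21 were found for 55144 of 55385 identifiers, and coordinates come from GENCODE M21. Estimated counts were rounded and tested in edgeR 4.0.16 (R 4.3.3): TMM, filterByExpr, 1 quasi-likelihood fit of 4 group means over 17222 genes, Benjamini-Hochberg adjustment, calling genes past 0.05 in adjusted p and 0.5 in log2 size (the interaction by adjusted p alone). SE is the absolute log2 fold change over the root of F, and 95% intervals are this SE times the t quantile at edgeR's degrees of freedom. TPM were tested with limma 3.58.1 on log2(TPM + 1), a scale that understates changes of low genes. Estimated counts divided by TPM were compared by exact permutation tests. DESeq2 1.42.0, voom, other scalings, no filter, a replicate block, only the groups compared and leaving out each library were alternatives. The fit was tested on simulated data for bicuculline in Control-shRNA: of 200 changed genes among 16912, 175 were recovered. The changes were of 1 or 2 log2, of which 79 and 96 genes were recovered. Smaller changes and a replicate effect were not simulated, so recovery of smaller differences is not known.

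Named genes were the 8 RNAs, Dnmt3a, Arc, Fos and Npas4, the nearest protein-coding gene on each side (some are not reported here), the 2 genes of most similar pattern, and the 2 called genes of largest change per list and comparison with a mean of at least 1 CPM. Zfas1, Snhg8, Zbtb37, Gm37376, Sst, Tubb3, Hnrnpr, Sfpq, Pspc1 and Nono were named after their values were seen. Same-numbered replicates deviated together in Control-shRNA between conditions (correlations 0.142 to 0.221 over genes) and at baseline between hairpins (0.204 to 0.355). Under Dnmt3a1-shRNA2 between conditions the correlations ran from 0.0631 to 0.337, and between hairpins with bicuculline from 0.0667 to 0.388. Differently numbered replicates were not compared and the labels do not state pairing, so whether the numbers pair libraries was not settled. Values come from the fit without the block and from unpaired permutation tests unless the block is named. If the numbers do pair libraries, these values ignore that pairing. The p-values measure the spread between these libraries.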

Additional observations from a re-analysis of the deposited data

Results flagged for a closer look

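Neat1 in Dnmt3a1-shRNA2 at baseline was flagged because 1 library lay far from the others. Replicate 1 held 1.09 CPM and the other 3 held 2.29 to 2.48 CPM, and the gap made up 0.898 of the range of the group in log2 CPM, above the 95% critical value for 4 libraries. It was the only one flagged of 32 groups examined, and chance flags about 1 in 20. Without this library the response of Neat1 to bicuculline under Dnmt3a1-shRNA2 was 1.02 log2 with an adjusted p of 3.37e-04 in edgeR, and its difference between the hairpins at baseline was 0.41 log2 with an adjusted p of 0.205.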

How the results depend on the processing

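The count of RNAs called with bicuculline was 3 in Control-shRNA under each of the 10 other settings but the replicate block, which gave 4, and 5 under Dnmt3a1-shRNA2 except for 4 with library sizes only, 6 without the fold threshold and 3 by limma on TPM with a pseudocount of 1 or 0.1. Leaving out 1 library in turn gave 3 to 4 and 4 to 5, 0 at baseline between the hairpins, 0 to 1 with bicuculline, and 0 for the interaction. For mean transcript length 4 against 3 libraries cannot go below an exact p of 0.0571, so the 0 counted there was fixed by the design. On both TPM scales Neat1 in Control-shRNA was not called and Miat was, lower (-0.51 and -0.53), Malat1 under Dnmt3a1-shRNA2 was not called (0.32 and 0.33) and Rmst under Dnmt3a1-shRNA2 was called neither there nor with library sizes only, where the median of all genes moved to -0.15 and -0.16 with bicuculline. The replicate block changed no other call than that of Rmst. Signs turned only for values that were not called, and the cause was not tested. With library sizes only these were Snhg11 with bicuculline under Dnmt3a1-shRNA2 (-0.062), Snhg1 between the hairpins at baseline (-0.047) and with bicuculline (-0.045), Pantr1 at baseline (-0.011) and Snhg1 in the interaction (0.0027, and 0.014 with voom). On TPM with pseudocounts of 1 and 0.1 they were Snhg11 with bicuculline under Dnmt3a1-shRNA2 (-0.064 and -0.065), between the hairpins at baseline Malat1 (0.023 and 0.024), Neat1 (-0.058 and -0.13), Snhg11 (-0.0003 and -0.0004), Gas5 (-0.11 and -0.11) and Snhg1 (-0.094 and -0.099), with bicuculline Rmst (-0.17 and -0.26) and Snhg1 (-0.0805 and -0.0813), and in the interaction Rmst (-0.14 and -0.20) and Snhg1 (0.014 and 0.018). Leaving out 1 library took Snhg11 from -0.11 to 0.039 with bicuculline in Control-shRNA and from -0.042 to 0.18 under Dnmt3a1-shRNA2, where Miat ran from -0.27 to 0.0023. Between the hairpins it took Snhg1 from -0.034 to 0.094 at baseline and from -0.064 to 0.16 with bicuculline, and Rmst from -0.082 to 0.30. In the interaction it took Miat from -0.054 to 0.22, Snhg11 from -0.011 to 0.21, Snhg1 from -0.094 to 0.14 and Pantr1 from -0.0065 to 0.12. Rmst and Neat1 had the fewest counts, 6 to 49.6 and 31.0 to 171 a library. The standard error of Rmst with bicuculline in Control-shRNA was 0.43, and 0.23 with the replicate block.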

Other observations

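Other long noncoding RNAs moved with bicuculline as well. Of 30 listed, 23 were tested, of which 7 were called higher in Control-shRNA and 10 under Dnmt3a1-shRNA2, and 0 lower. Over all genes 10.8% and 12.6% were called higher and 11.1% and 13.2% lower. Dleu2, the host of a microRNA cluster, rose by 1.27 and 1.52 log2 and Mir22hg, the host of miR-22, by 1.22 and 1.33. Firre, a nuclear RNA of the X chromosome, was called lower under Dnmt3a1-shRNA2 than in Control-shRNA at baseline (-0.80 log2, adjusted p 0.00940 in edgeR) and with bicuculline (-0.72, adjusted p 0.0188). Mirg, from the imprinted Meg3 locus, was called higher under Dnmt3a1-shRNA2 than in Control-shRNA with bicuculline (0.52 log2, adjusted p 0.00631 in edgeR).

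Of 24 nuclear speckle proteins, the bodies where Malat1 resides, 3 were called higher and 2 lower with bicuculline in Control-shRNA, and 2 higher and 1 lower under Dnmt3a1-shRNA2, where 10.8% and 12.6% of all genes were called higher and 11.1% and 13.2% lower. Clk4, a kinase of splicing factors, changed by 0.73 and 0.69 log2, Srsf11 by 0.63 and 0.83 and Rbm25 by -0.72 and -0.89. Thoc2 was called lower under Dnmt3a1-shRNA2 than in Control-shRNA at baseline (-0.62 log2, adjusted p 4.01e-05 in edgeR). Of 19 genes of nonsense-mediated decay, the pathway known to degrade spliced Gas5 RNA, 2 were called higher and 2 lower in Control-shRNA, and 2 higher and 3 lower under Dnmt3a1-shRNA2. Magoh changed by 0.75 log2 in Control-shRNA. Under Dnmt3a1-shRNA2 Magoh changed by 0.48 (adjusted p 0.00165 in edgeR), under the fold threshold and so not called. Upf3b changed by -0.61 and -0.89 and Etf1 by 0.56 and 0.68. Dhx34 was called lower under Dnmt3a1-shRNA2 than in Control-shRNA with bicuculline (-0.57 log2, adjusted p 0.00477 in edgeR).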
